A study of Glycine max with 14 samples.

Results

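Soybean cotyledons of the cultivar Williams (Glycine max) at stage 3, taken 2 to 3 days after planting, were compared with those at stage 2, taken 2 days after planting. The comparison used the libraries labelled Stage3 and Stage2, replicates BR1 and BR2 of each, which are 4 of the 14 RNA sequencing libraries of the series. The remaining libraries cover stage 1 (1 day after imbibition) and stages 4 to 7 (3 to 7 days after planting), with 2 biological replicates each. The plants grew in a greenhouse, RNA came from lyophilized cotyledons, and the labels give no difference in genotype or treatment between the stages. A cotyledon is a whole organ, so fewer cells of a type and less RNA per cell cannot be told apart in these values. The sources used here do not say how many seedlings made a replicate, and the sampling windows of the stages touch at 2 days.

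The cotyledon is the storage leaf of the embryo. During seed filling it accumulates storage proteins and oil under the control of embryo regulators of the LEC1 and ABI3 families. After germination the stored protein is broken down, fatty acids pass through the glyoxylate cycle on their way to sugar, and in soybean the organ then greens and works as a leaf, with Rubisco fixing carbon dioxide. The days between imbibition and greening therefore hold the end of the seed program and the onset of reserve use and photosynthesis, as background to the values given here.

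Between these stages 6 gene models fell past the test (0.0135% of those tested) and 0 rose (0%), and all 6 had low levels. Differences of at least 2-fold in both replicate pairs pointed mostly one way, with 277 models lower at stage 3 (0.623%) and 6 higher (0.0135%). Models taken as ABI3 genes had between 2.61 and 7.70 RPKM at stage 3, against 16.2 to 25.04 RPKM at stage 2. Models taken as isocitrate lyase had 862 to 2124 RPKM at stage 3, against 580 to 1039 RPKM at stage 2. These and the tested models taken as Rubisco small subunits were higher in both pairs, as were 38.7% of all tested models. None of these family members passed the test over stages 2 to 7.

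Values were RPKM, reads scaled by the length of the gene model and by the read total of the library. The stage 3 libraries held 90.8 M and 92.1 M reads assigned to gene models in replicates 1 and 2, against 121.7 M and 90.2 M in the stage 2 libraries (M, units of 1e+06 reads, recovered from the RPKM values). Of 78773 gene models, 44450 models of 35547 loci reached 1 RPKM in at least 2 of the 14 libraries and were tested. Within the 2 stages, 36141 models were at 1 RPKM or more in all 4 libraries. Another 304 models reached that level in both stage 3 libraries and in neither stage 2 library, and 250 models did so in both stage 2 libraries and in neither stage 3 library.

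The step between the stages was of the same size as the spread between replicates of a stage. The SD of the log2 difference across models was 0.464 between stage 3 replicate 1 and stage 2 replicate 1, and 0.312 between the replicate 2 libraries. It was 0.437 between the 2 stage 3 libraries and 0.473 between the 2 stage 2 libraries. Stage 3 replicate 2 was thus closer to stage 2 replicate 2, with 630 models at least 2-fold apart, than to its own replicate, with 1541 models at least 2-fold apart. Stage 3 replicate 1 was also somewhat closer to stage 2 replicate 2 (SD 0.428, 1413 models at least 2-fold apart) than to stage 2 replicate 1 of its own number (1758 models). Here and below a fold is taken on the log2(RPKM + 1) scale, on which the change of a model with a low level is understated. Libraries that carried the same replicate number deviated together: the deviations from the stage mean correlated between stage 3 and stage 2 with r = 0.60 across models, and the 15 pairs of stages from 2 to 7 had r between 0.15 and 0.60. The replicate number was therefore kept as a block in the fit, as 1 shift shared by stages 2 to 7. The median log2 fold change of all tested models was 0.0247 with or without this block. Both replicate numbers occur at every stage, so the block could not change a log2 fold change. For the replicate pairs, each stage 3 library was set against the stage 2 library of its own number.

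Identifiers on chromosome 13 showed 1 such shared deviation. A run of 52 neighbouring models took 1.15% and 6.53% of the reads in stage 3 replicates 1 and 2, against 1.34% and 11.6% in stage 2 replicates 1 and 2. The share was higher in replicate 2 at both stages. Its part in the comparisons was tested only by rescaling the libraries without these models.

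One set of models was high in stage 3 replicate 1 alone. In it 42 models were at least 4-fold above all 11 other libraries of stages 2 to 7, with 6.74 to 63.5 RPKM. Their median was 18.2 RPKM in stage 3 replicate 1 and 0.213 RPKM in stage 3 replicate 2, against 0.737 and 0.701 RPKM in stage 2 replicates 1 and 2. The choice itself fixed that all 42 were more than 2-fold higher at stage 3 in the replicate 1 pair. It did not fix the direction of the replicate 2 pair, in which all 42 were lower at stage 3. They took 0.558% of that library's reads. The set was chosen after its values were seen. Set against all 13 other libraries, stage 3 replicate 1 had 34 such models and the other 3 libraries compared had 0, while stage 1 replicate 1 had 528.

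Across the 44450 tested models, the changes of the replicate 1 pair and of the replicate 2 pair correlated with Pearson's r = 0.51 and Spearman's rho = 0.55. This correlation is across models, which share their libraries and are not independent replicates. At least 2-fold in the same direction in both pairs, 277 models (0.623%) were lower at stage 3 and 6 models (0.0135%) were higher. Opposite directions by at least 2-fold were seen for 54 models, of which 53 were higher at stage 3 in the replicate 1 pair. At 1.5-fold in both pairs the counts were 992 lower and 258 higher, with 150 opposite. At 4-fold in both pairs 17 models (0.0382%) were lower and 0 were higher. Nearest to the 2-fold limit, the smaller of the pair changes was 1.00058 on the log2 scale for the model just inside and 0.999622 for the model just outside.

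**Figure D1:**
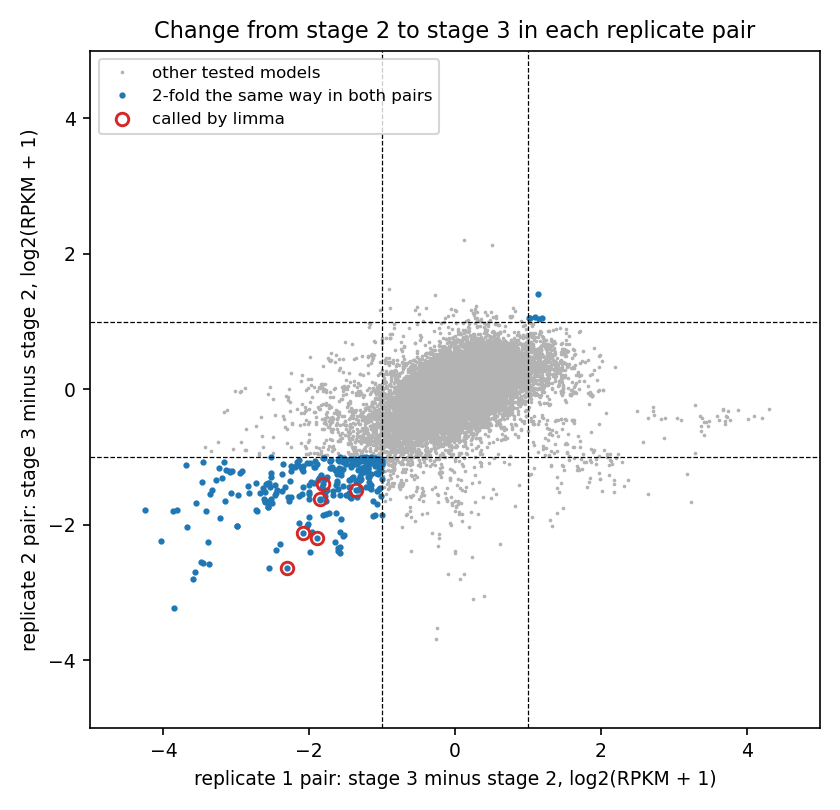
Log2 difference, stage 3 minus stage 2, in the replicate 1 pair (horizontal axis) and in the replicate 2 pair (vertical axis), 1 point per tested model, with the 2-fold limits drawn. The lower left corner, 2-fold lower at stage 3 in both pairs, holds 277 models, and the upper right corner holds 6.

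The imbalance toward lower values at stage 3 concerned large changes. Without a limit on size, both stage 3 libraries lay above both stage 2 libraries for 10807 models (24.3%) and below both for 7485 models (16.8%). That split turned round when the libraries were rescaled without the chromosome 13 run, to 8405 above and 10299 below, whereas the 2-fold counts then were 320 lower and 1 higher. Of the models with a mean of 1 to 10 RPKM, 137 of 25288 were 2-fold lower in both pairs and 1 was higher. Of those at 10 to 100 RPKM, 139 of 13341 were lower and 5 were higher. Above 100 RPKM, 1 of 695 models was 2-fold lower in both pairs and 0 were higher. The median log2 fold change was 0.21 for these abundant models and 0.02 over all tested models.

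In the test across all models, 6 models fell (0.0135%) and 0 rose (0%) at stage 3. A call needed an adjusted p under 0.05 and a log2 fold change of at least 1 in size, in limma with stage means and the replicate block over the 12 libraries of stages 2 to 7, adjusted by the method of Benjamini and Hochberg. The smallest adjusted p in that limma fit was 0.0227, and 1768 models higher and 2167 models lower at stage 3 had an unadjusted p under 0.05. All 6 were at or below 10.1 RPKM in each of the 4 libraries, and their stage 3 level was between 0.0946 and 0.124 of the stage 2 level on the linear scale.

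The model with the smallest adjusted p had 1.02 and 0.779 RPKM at stage 3 in replicates 1 and 2, against 9.02 and 10.1 RPKM at stage 2. These values rest on 74 and 57 reads at stage 3, against 873 and 721 reads at stage 2. Its log2 fold change was -2.47 ± 0.189 (SE; limma adjusted p = 0.0227, lower in 2 of 2 pairs). Both stage 3 values lay far below both stage 2 values.

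A second model had 0.411 and 0.292 RPKM at stage 3, against 4.08 and 2.98 RPKM at stage 2 (log2 fold change -1.74 ± 0.153, limma adjusted p = 0.0244). A model with 0.270 and 0.195 RPKM at stage 3, against 2.27 and 2.35 RPKM at stage 2, had a log2 fold change of -1.43 ± 0.122 and the same limma adjusted p. The 2 stages did not overlap for either, and at stage 3 each rested on 18 to 26 reads.

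Among the remaining 3 calls, 1 model had 0.556 and 1.23 RPKM at stage 3, against 5.603 and 8.74 RPKM at stage 2 (log2 fold change -2.11 ± 0.203, limma adjusted p = 0.0381). Another had 0.389 and 0.277 RPKM at stage 3, against 3.87 and 2.35 RPKM at stage 2 (-1.60 ± 0.159, limma adjusted p = 0.0388). The last had 1.07 and 0.416 RPKM at stage 3, against 6.72 and 5.52 RPKM at stage 2 (-2.05 ± 0.214, limma adjusted p = 0.0487). All 6 models were lower at stage 3 in both pairs, with log2 differences of -1.37 or lower in each pair.

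**Figure D2:**
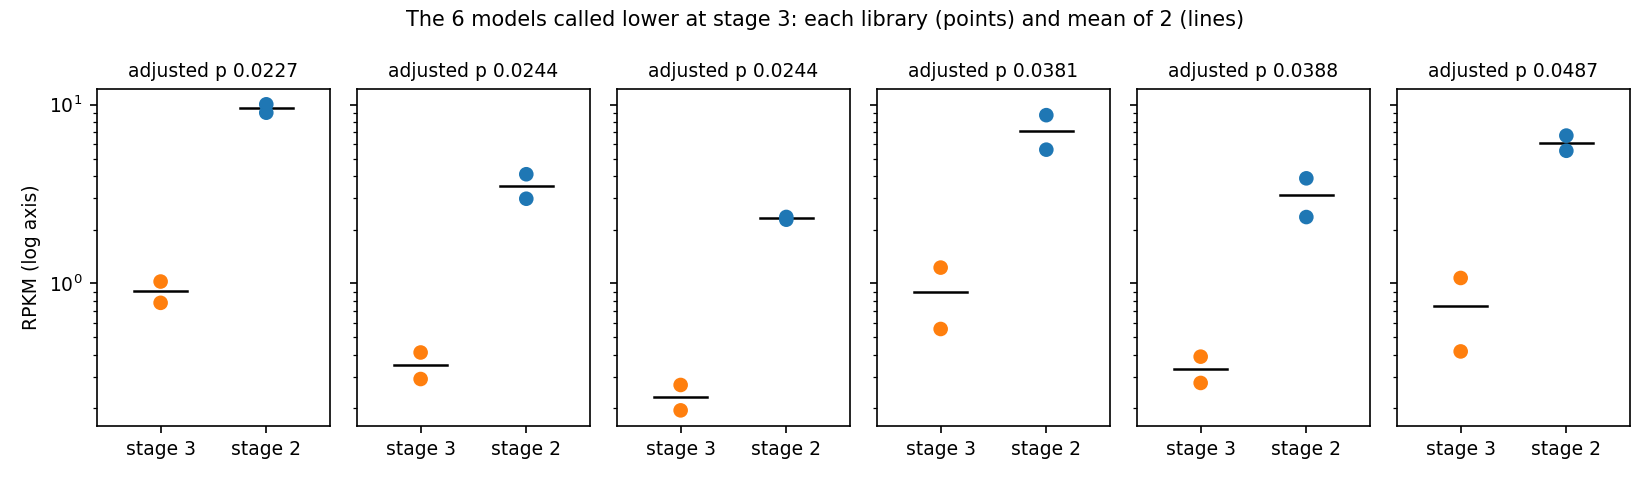
RPKM of the 6 models called lower at stage 3, on a log axis, with 1 point per library at stage 3 (left in each panel) and stage 2 (right). Every stage 3 point lies below every stage 2 point of the same model, at about 0.0946 to 0.124 of the stage 2 mean.

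Over the rest of the course the 6 models stayed low. Their stage means at stages 4 to 7 were between 0.0128 and 0.546 RPKM, and each was lower at stage 6 than at stage 3. The replicate spread at these low levels entered the SE of the fit, and its part in the calls was not tested. At stage 1 the means were 8.31 to 34.6 RPKM, and the replicates there could differ widely: 1 of the 6 had 0.309 RPKM in stage 1 replicate 1 and 16.3 RPKM in stage 1 replicate 2, and another had 31.2 and 1.76 RPKM.

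The number of calls differed with the libraries that entered the fit. Fitted on the 4 libraries alone with the block, which leaves 1 residual degree of freedom, limma called 233 models lower (0.524%) and 9 higher (0.0202%). All 6 models of the wider fit were among the 233, with adjusted p between 0.0190 and 0.0334, and 184 of the 233 were also 2-fold lower in both pairs. The 233 models belonged to 191 loci with a median log2 fold change of -1.26. With all 14 libraries and the block there were 0 calls, with 442 models higher and 641 lower at an unadjusted p under 0.05. Leaving out stage 3 replicate 2 gave 42 higher and 6 lower, and leaving out stage 2 replicate 2 gave 123 lower. Leaving out stage 2 replicate 1, stage 3 replicate 1, or any library of stage 4 or stage 6 gave 0 calls, and leaving out either library of stage 5 gave 14 lower.

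The 277 models at least 2-fold lower at stage 3 in both pairs came from 224 loci with identifiers on all 20 chromosome numbers. Their stage means had a median of 3.61 RPKM at stage 3 (0.232 to 84.7), against 16.3 RPKM at stage 2 (2.31 to 211). At stage 2, 189 of them were at 10 RPKM or more. None had exactly the same reads in every library as a model at another locus, but some neighbours by identifier had nearly the same. For example, a model with 898 and 389 reads in stage 3 replicates 1 and 2 had a neighbour with 898 and 385 reads there. Such loci are uncertain as separate measurements. In the limma fit over stages 2 to 7, 249 had an unadjusted p under 0.05, against 3935 of all 44450 tested models. As they were chosen from these 4 libraries, their direction and the count of small p-values are a description.

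What the choice did not use was their level at the other stages. The stage mean was highest at stage 1 for 273 of the 277 (98.6%), against 27.1% of all tested models. That placement rested on stage 1 replicate 1: with that library alone for stage 1, 270 were highest there (97.5%, all tested 24.7%), and with stage 1 replicate 2 alone it was 106 (38.3%, all tested 30.6%), while 137 were then highest at stage 2. The median over the set was 125 RPKM in stage 1 replicate 1 and 11.4 RPKM in stage 1 replicate 2. The replicate 1 library was thus far above both stage 2 libraries, at 21.0 and 8.21 RPKM in replicates 1 and 2, and the replicate 2 library lay between these.

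After stage 3 the medians of the set lay under those of stage 2, while single members did not all do so. The medians were 4.69 and 2.38 RPKM in stage 3 replicates 1 and 2, 3.21 and 1.22 RPKM at stage 4, 2.55 and 2.09 RPKM at stage 5, 0.958 and 0.510 RPKM at stage 6, and 3.25 and 1.86 RPKM at stage 7. In 144 of the 277 the mean of at least 1 later stage was above that of stage 3, and in 40 it was above that of stage 2 as well. At stage 4, 275 of the 277 were at least 2-fold below stage 1 replicate 1 (99.3%, all tested 16.3%) and 180 were at least 2-fold below stage 1 replicate 2 (65.0%, all tested 10.6%).

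**Figure D3:**
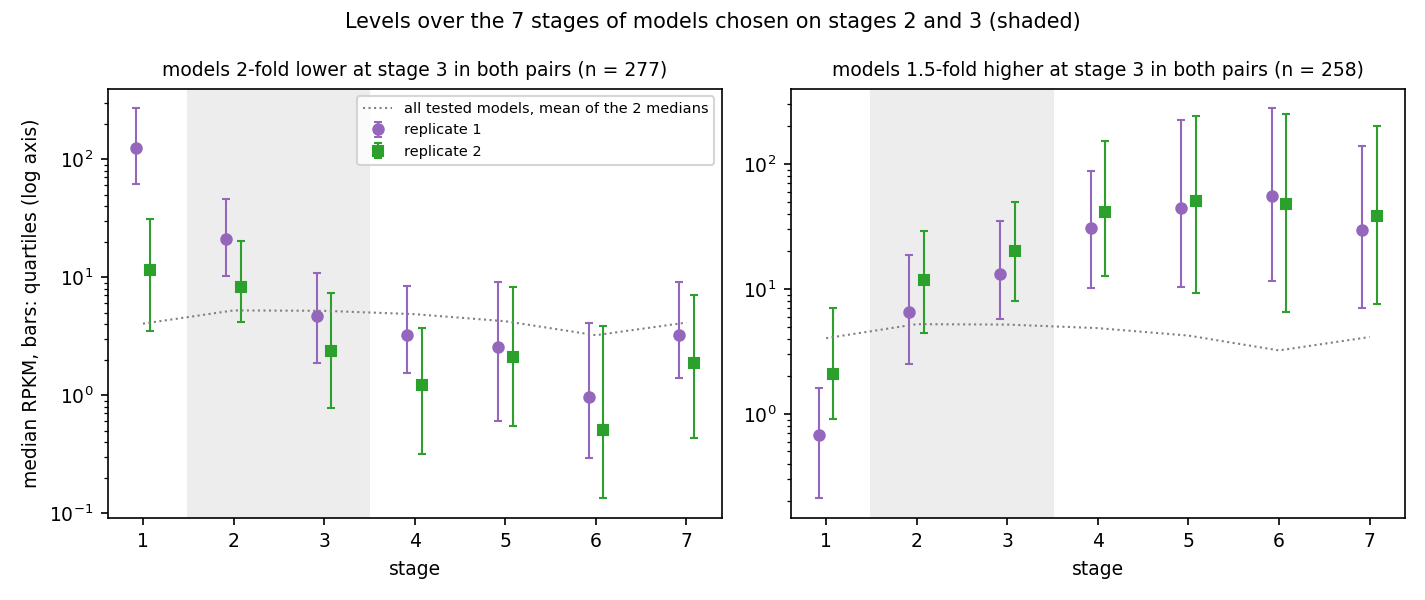
Median RPKM over the models 2-fold lower at stage 3 in both pairs (277 models) and over those 1.5-fold higher in both pairs (258 models, a looser limit), by stage 1 to 7 on a log axis, with replicates drawn apart. The first set stands at 125 RPKM in stage 1 replicate 1 and 11.4 RPKM in stage 1 replicate 2, and at 4.69 and 2.38 RPKM in the stage 3 libraries. The second set climbs to 55.2 RPKM at stage 6 in replicate 1. In replicate 2 it climbs to 50.3 RPKM at stage 5 and is at 47.9 RPKM at stage 6.

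Since only 6 models were 2-fold higher in both pairs, higher models are described at 1.5-fold. The 258 models at least 1.5-fold higher in both pairs came from 205 loci, and their stage means had a median of 18.7 RPKM at stage 3, against 9.99 RPKM at stage 2. Their median log2 fold change was 0.84, and that of the 992 models lower by the same 1.5-fold limit was -0.99. The medians over all stages ran 1.45, 9.99, 18.7, 35.9, 47.9, 52.7 and 38.2 RPKM from stage 1 to stage 7. The stage mean was highest at stage 6 for 105 of them (40.7%, all tested 5.09%), at stage 5 for 49, at stage 7 for 39, at stage 3 for 35 and at stage 4 for 30. Here both stage 1 libraries gave the same placement: stage 4 was at least 2-fold above stage 1 replicate 1 for 257 models (99.6%, all tested 33.7%) and above stage 1 replicate 2 for 239 models (92.6%, all tested 16.4%).

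The files pair no identifier with a gene name, so at most 4 single models are named, without a role. Chosen as the largest changes among models of at least 10 RPKM that moved 2-fold in both pairs, none of the 4 passed the limma test over stages 2 to 7, and all 4 did in the fit on the 4 libraries. The choice used those same 4 libraries, so for all 4 models the adjusted p on them is a description and gives no support. Glyma11g21620.1 had 26.4 and 29.1 RPKM at stage 3, against 11.4 and 10.3 RPKM at stage 2 (log2 fold change 1.28 ± 0.350, limma adjusted p = 0.354, and 0.0398 on the 4 libraries). Its stage means continued to 174 RPKM at stage 4 and 390 RPKM at stage 7. Glyma17g11530.1 had 21.0 and 22.97 RPKM at stage 3, against 8.59 and 10.6 RPKM at stage 2 (1.12 ± 0.271, limma adjusted p = 0.299, and 0.0407 on the 4 libraries). Unlike the first, it was near its stage 3 level at stages 4 and 5, with a mean of 25.3 RPKM at stage 4, and was at 5.55 RPKM at stage 7.

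Glyma14g34500.1 had 2.17 and 0.795 RPKM at stage 3, against 44.8 and 15.9 RPKM at stage 2 (log2 fold change -3.54 ± 0.402, limma adjusted p = 0.0557, and 0.0190 on the 4 libraries). Its stage 1 replicates stood at 255.6 and 1.36 RPKM. Glyma05g08410.1 had 1.44 and 0.653 RPKM at stage 3, against 28.6 and 10.5 RPKM at stage 2 (-3.20 ± 0.395, limma adjusted p = 0.0672, and 0.0377 on the 4 libraries), with 93.5 and 9.66 RPKM in the stage 1 replicates. For both, replicate 1 was above replicate 2 at either stage, and the stages did not overlap.

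Gene families were described through 13 lists of 72 identifiers, of which 62 were tested. The identifiers come from general knowledge of published soybean genes and no table at hand pairs them with these families, so the family names are assumed. For 71 of the 72, the RefSeq table (Glycine_max_v4.0) has a symbol of the family on the chromosome that the identifier names. A symbol anywhere on a chromosome does not tie the identifier to the family, so the names stay assumed. No list member was called in the fit over stages 2 to 7, in which 0% of all models were called higher and 0.0135% lower. Each median below is a log2 fold change of stage 3 against stage 2, beside 0.02 for all tested models.

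Among the regulators of the seed program, 2 of the 4 members of the LEC1 and ABI3 list were tested, both of them taken as ABI3 genes, transcription factors that keep seeds mature and dormant. The more abundant had 7.70 and 3.15 RPKM at stage 3, against 25.04 and 21.1 RPKM at stage 2 (log2 fold change -1.998 ± 0.315, limma adjusted p = 0.109, and 0.0568 on the 4 libraries). The other had 4.48 and 2.61 RPKM at stage 3, against 16.2 and 16.2 RPKM at stage 2 (-1.95 ± 0.255, limma adjusted p = 0.0672, and 0.0377 on the 4 libraries). For each, both stage 3 libraries lay below both stage 2 libraries, as in 16.8% of tested models. Both were also 2-fold lower in both pairs, which 0.623% of tested models were. At stage 4 both were lower again, with 1.31 and 0.681 RPKM for the first and 0.835 and 0.423 RPKM for the second, and stage 1 was higher than stage 2, at 76.5 and 39.4 RPKM and at 51.3 and 27.4 RPKM. The 2 LEC1 members stayed under 1 RPKM in all 4 libraries and were not tested.

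Seed storage proteins and other seed proteins gave no common direction. The 5 glycinins, the legumin-type storage globulins, summed to 22.8 and 99.4 RPKM at stage 3, against 40.7 and 73.0 RPKM at stage 2. All 5 were lower at stage 3 in the replicate 1 pair and all 5 were higher in the replicate 2 pair, with medians of -0.48 and 0.40, and in the fit their median was -0.04, and 0.51 without stage 3 replicate 1. The 6 tested beta-conglycinins, the vicilin-type globulins, had a median of 0.24, and -0.043 without stage 2 replicate 1. The most abundant had 18.2 and 46.99 RPKM at stage 3, against 13.2 and 47.7 RPKM at stage 2. A second beta-conglycinin had nearly the same reads in each of the 4 libraries, and another pair was nearly equal too, so these are uncertain as separate measurements and no sum is given. For the glycinin sum and for that beta-conglycinin the replicate 2 libraries were higher than the replicate 1 libraries at either stage, by more than the stages differed.

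Seed lipoxygenases, enzymes that oxidize polyunsaturated fatty acids in the seed, had a median of -0.45 over 3 members, with -0.47 in the replicate 1 pair and -0.46 in the replicate 2 pair. The most abundant had 6.01 and 50.8 RPKM at stage 3, against 10.3 and 85.5 RPKM at stage 2 (log2 fold change -0.72 ± 0.553, limma adjusted p = 0.767). Each stage 3 value was below that of its own pair, but the stages overlapped, because the replicates of a stage lay further apart than the stages. Lectin and Kunitz trypsin inhibitor, proteins that bind sugars and block digestive proteases, had a median of 0.10 over 5 members. The pairs differed in sign, with 0.38 in the replicate 1 pair and -0.18 in the replicate 2 pair. The P34 thiol protease, a seed vacuolar protein, had 4.86 and 3.19 RPKM at stage 3, against 4.42 and 3.15 RPKM at stage 2, with a log2 fold change of 0.06 ± 0.244 (limma adjusted p = 0.968), and -0.093 without stage 3 replicate 1.

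Among the enzymes of reserve use, isocitrate lyase, which splits isocitrate in the glyoxylate cycle, had its 2 members among the abundant models. The first had 2124 and 1331 RPKM at stage 3, against 1039 and 837 RPKM at stage 2, 1.84 times as much on the linear scale (log2 fold change 0.85 ± 0.272, limma adjusted p = 0.423). The second had 1547 and 862 RPKM at stage 3, against 784 and 580 RPKM at stage 2 (0.78 ± 0.290, limma adjusted p = 0.4997). Both stage 3 libraries were above both stage 2 libraries for each, a pattern found in 24.3% of all tested models, and the adjusted p did not pass. Of the 7 stage means, that of stage 3 was the highest for both models: at stage 1 the first had 22.6 and 139 RPKM, at stage 4 it had 1302 and 646 RPKM, and at stage 6 it had 208 and 177 RPKM.

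Vegetative lipoxygenases, the storage-like lipoxygenases of soybean leaves and seedlings, had a median of 0.83 over 8 tested members of 13. The replicate 1 pair gave 1.47 and the replicate 2 pair gave 0.0044, and the list median was -0.064 without stage 2 replicate 1. The most abundant had 158 and 315 RPKM at stage 3, against 49.7 and 303 RPKM at stage 2. Its stages overlapped, and stage 2 replicate 1 stood apart as the low library. The fatty acid desaturases, which place double bonds in membrane and oil fatty acids, had a median of 0.19 over 10 tested members of 11, with 5 above both stage 2 libraries (24.3% of all tested models) and 1 below both (16.8% of all tested models).

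That 1 desaturase had 9.82 and 14.8 RPKM at stage 3, against 42.4 and 44.3 RPKM at stage 2 (log2 fold change -1.76 ± 0.732, limma adjusted p = 0.553). It was 2-fold lower in both pairs, and it was called on the 4 libraries alone (limma adjusted p = 0.0340). The most abundant desaturase had 179 and 214 RPKM at stage 3, against 111 and 133 RPKM at stage 2 (0.68 ± 0.324, limma adjusted p = 0.591). The 2 members thus lay on opposite sides of stage 2, both without overlap.

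Among the genes of photosynthesis, the small subunit of Rubisco, the carbon-fixing enzyme, had 3 tested members of 4, all 3 above both stage 2 libraries, as were 24.3% of all tested models. The most abundant had 639 and 591 RPKM at stage 3, against 256 and 418 RPKM at stage 2 (log2 fold change 0.91 ± 0.386, limma adjusted p = 0.553). A second, whose values ran nearly in parallel to the first in every library, had 548 and 507 RPKM at stage 3, against 218 and 359 RPKM at stage 2. Near-identical copies may share reads, so these 2 are uncertain as separate measurements. The third had 259 and 217 RPKM at stage 3, against 119 and 155 RPKM at stage 2 (0.80 ± 0.361, limma adjusted p = 0.576). The list's median of 0.91 came from 1.32 in the replicate 1 pair and 0.50 in the replicate 2 pair. The step was early in a long climb, since the most abundant member had 2518 and 5616 RPKM at stage 4 and 17734 and 16075 RPKM at stage 6.

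Rubisco activase, which frees Rubisco of bound sugar phosphates, did not share that pattern. The more abundant of its 2 models had 15.8 and 16.4 RPKM at stage 3, against 31.3 and 9.31 RPKM at stage 2 (log2 fold change -0.09 ± 0.766, limma adjusted p = 0.987). The other had 9.63 and 10.2 RPKM at stage 3, against 27.3 and 6.05 RPKM at stage 2. The stage 3 libraries lay together, between a high and a low stage 2 library, so the replicate 1 pair gave a median of -1.18 and the replicate 2 pair gave 0.72. The fitted median of -0.23 was 1.03 without stage 2 replicate 1. Phytochromes A and B, the red and far-red light receptors, had a median of 0.24 over 5 members, of which 2 were above both stage 2 libraries, as were 24.3% of all tested models. The most abundant phytochrome had 135 and 117 RPKM at stage 3, against 122 and 92.6 RPKM at stage 2 (0.24 ± 0.266, limma adjusted p = 0.841).

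Chalcone synthase, the entry enzyme of flavonoid synthesis, and isoflavone synthase, which turns flavanones toward isoflavones, had a median of -0.58 over 10 members. Their medians were -0.50 in the replicate 1 pair and -0.63 in the replicate 2 pair. The list median was positive when stage 2 replicate 1 was left out (0.15) or stage 3 replicate 2 was left out (0.25). It was -1.39 when stage 3 replicate 1 was left out, and -1.30 when stage 2 replicate 2 was left out. The most abundant isoflavone synthase had 398 and 301 RPKM at stage 3, against 566 and 270 RPKM at stage 2 (log2 fold change -0.17 ± 0.263, limma adjusted p = 0.890). The most abundant chalcone synthase had 174 and 88.2 RPKM at stage 3, against 310 and 131 RPKM at stage 2 (-0.70 ± 0.563, limma adjusted p = 0.779). None of the 10 was without overlap between the stages, whereas 24.3% of all tested models lay above both stage 2 libraries and 16.8% below both. Replicate 1 was above replicate 2 for each of these models at either stage. A cluster of 5 chalcone synthase models on chromosome number 8, at 89.3 to 121 RPKM in stage 3 replicate 1, had values that ran nearly in parallel. The cluster is uncertain as 5 separate measurements.

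**Figure D4:**
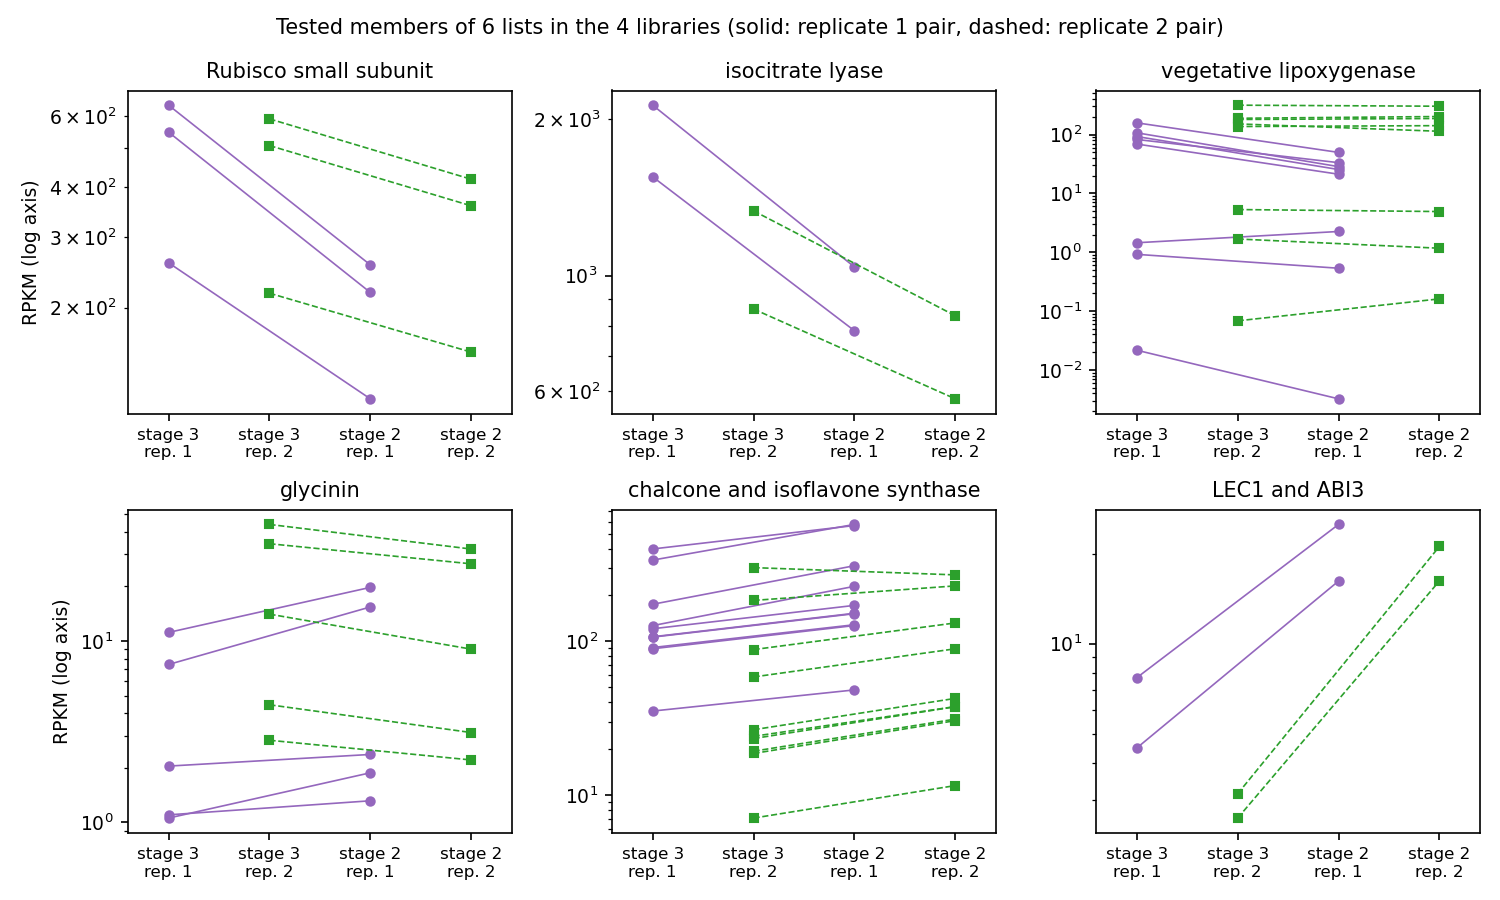
RPKM of the tested members of 6 lists in each of the 4 libraries on a log axis, stage 3 left of stage 2, with solid lines joining the replicate 1 libraries of a model and dashed lines the replicate 2 libraries. A line that drops to the right marks a model higher at stage 3: both isocitrate lyase models and the 3 Rubisco small subunits drop in both pairs, both ABI3 models climb in both, and the glycinins slope opposite ways in the 2 pairs. Of all tested models, 38.7% were higher and 30.9% were lower at stage 3 in both pairs.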

How the data were processed

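The authors deposited 1 RPKM value per gene model and library, per the file headers. Per the submitters' processing notes, Bowtie was the aligner. Its version, the genome build, the annotation, strandedness and how multiply matching reads were handled were not given in the sources used here. Whole reads were recovered for all 67016 models above 0 in at least 2 libraries (100%, within 0.003 reads or 3e-08 of the read number), and read totals were 83.9 M to 131 M per library.

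RPKM values are not counts, so log2(RPKM + 1) was fitted in limma 3.58.1 under R 4.3.3, using stage means and the replicate block over the 12 libraries of stages 2 to 7, trended and robust empirical Bayes, and 5 residual degrees of freedom. Stage 1 was left out, since its libraries differed by an SD of 1.10 on the log2 scale, against 0.437 to 0.531 at the other stages. Replicate numbers paired the libraries, since all 15 pairs of stages from 2 to 7 had correlated deviations. Models under 1 RPKM in all but 1 library were not tested. The script was tested on simulated data.

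Members and gene lists were chosen with earlier results of these data known. Named models were the 2 largest changes each way at 10 RPKM or more, past the test or, where fewer than 2 passed, 2-fold in both pairs; list members are described in their list. The identifiers matched 0 of 59048 RefSeq genes, so no coordinates or sequences are given. Alternatives covered the libraries fitted, block, pseudocount, filter, scaling, limma voom on the recovered reads and each left-out library.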

Additional observations from a re-analysis of the deposited data

How the results depend on the processing

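The 6 calls, all lower at stage 3, changed in number under most alternatives. They were 0 with all 14 libraries and the replicate block, with a pseudocount of 0.5, a filter of 5 RPKM, upper quartile scaling or limma voom on recovered reads. There were 2 with no replicate block, so the block moved the count. There were also 2 with quantile normalization, 3 with no filter, 10 with no robust estimation and 17 with a pseudocount of 5. Rescaling without the chromosome 13 run gave 18, and the filter set on the 4 libraries gave 27. Both settings, and that with no robust estimation, kept all 6 models, while the pseudocount of 5 kept 2 of the 6. Leaving out either library of stage 7 again gave 6 calls, of which 4 were among the original 6. The 4 libraries alone gave 242, of which 9 were higher and 233 lower. Leaving out 1 library gave 0 to 123 calls, with 0 to 42 higher and 0 to 123 lower. The cause was not tested.

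Counts of 2-fold changes in both pairs were 12 higher with a pseudocount of 0.5, 0 higher and 61 lower with a pseudocount of 5, and 1 higher after the rescaling. At 1.5-fold, in alternatives added after seeing the data, 403 were higher with a pseudocount of 0.5, 88 higher and 349 lower with a pseudocount of 5, and 164 higher after the rescaling. The median of all models was 0.00 with no filter and -0.0050 after the rescaling, and -0.033 to 0.076 when 1 library was left out.

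Among list medians, that of the seed lipoxygenases was -0.63 with a pseudocount of 0.5 and -0.15 with a pseudocount of 5. With either stricter filter only the most abundant of the 3 members was left, at -0.72. The median was -0.42 with quantile normalization, -0.41 with upper quartile scaling, -0.49 after the rescaling and -0.96 with limma voom. It was -0.64 to -0.19 when 1 library was left out. The LEC1 and ABI3 median was -1.39 with a pseudocount of 5. With no filter it was -1.18, with the LEC1 members, untested in the main fit, then included. The desaturase median was 0.29 with the filter set on the 4 libraries, which left out members under 1 RPKM there, and 0.11 to 0.40 without 1 library. The chalcone and isoflavone synthase median was -0.75 with quantile normalization and -1.39 to 0.25 without 1 library. Leaving out 1 library also moved the sign of the medians of beta-conglycinin (-0.043 to 0.53), P34 (-0.093 to 0.22), glycinin (-0.59 to 0.51), vegetative lipoxygenase (-0.064 to 1.64) and Rubisco activase (-1.49 to 1.03). Depth limits the low models: the 6 calls rest on 13 to 190 reads a library at stage 3.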
